A study of Mus musculus with 6 samples.

Results

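Collagen leaves the endoplasmic reticulum (ER) only after its chains have been hydroxylated, folded into a triple helix and packed for export, and it forms fibrils only after its propeptides have been removed outside the cell. Prolyl 4-hydroxylases make the 4-hydroxyproline that keeps the triple helix stable at body temperature, and lysyl hydroxylases make the hydroxylysine that carries sugars and forms cross-links between collagen molecules. The collagen chaperone HSP47 (Serpinh1) binds the folded helix, and fibroblasts, which secrete much of the collagen of connective tissue, express this machinery at high levels. The 10 genes described here were chosen by their symbols as the collagen hydroxylases P4ha1, P4ha2, P4ha3, Plod1, Plod2 and Plod3, the folding factors Serpinh1 and Crtap, and the propeptide processing factors Pcolce and Bmp1. All 10 were present in the deposited table of 29955 genes, and all 10 had enough reads to be tested.

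RNA-seq was performed on 3 Rnf40+/+ and 3 Rnf40-/- cultures of mouse embryonic fibroblasts (MEFs) at passage 3. RNF40 is a subunit of the ubiquitin ligase that monoubiquitinates histone H2B. The knockout MEFs came from embryos in which loxP sites flanked exons 3 and 4 of both Rnf40 alleles, with a tamoxifen-inducible Cre recombinase (CreERT2) driven from the ubiquitously active Rosa26 locus, and they received 4-hydroxytamoxifen at 250 nM for 5 days before 3 days without the drug. The sources used here do not state whether the Rnf40+/+ cells carried floxed alleles or Cre or were given the drug, so that drug and deletion cannot be told apart. They do not say either whether replicates came from separate embryos, and the p values therefore measure the spread between these samples, which may be technical.

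The libraries held between 17053436 and 26344170 reads on genes in the Rnf40+/+ group and between 18115481 and 20495627 in the Rnf40-/- group. Values are given as normalized counts, that is, the reads of a gene after division by the size factor of its library. Every member had at least 1222 reads in every library. Rnf40 itself fell from 1096 to 1278 normalized counts in Rnf40+/+ libraries to between 439 and 519 in Rnf40-/- libraries (log2 fold change -1.30, adjusted p = 4.25e-07 from limma). All 13 fibroblast markers examined, of which Col1a1, Col1a2 and Col3a1 are also substrate chains, were detected in both genotypes. In Rnf40-/- MEFs 11 of the 13 fell (84.6%), while of all genes tested 24.1% fell and 23.3% rose. The 13 markers summed to between 701000 and 767900 normalized counts in Rnf40+/+ and to between 421300 and 424500 in Rnf40-/- libraries. Much of this sum was Fn1, with means of 328300 in Rnf40+/+ and 210096 in Rnf40-/- MEFs. Markers of other cell types were also present, some of them at very low counts. The 10 macrophage markers summed to between 5769 and 9857 normalized counts in Rnf40+/+ libraries and to between 3699 and 4103 in Rnf40-/- libraries, with 3 falling and 2 rising of 9 tested. Most of this sum was Lyz2, with between 3945 and 7440 in Rnf40+/+ and between 2093 and 2383 in Rnf40-/- libraries. The 9 skeletal muscle markers summed to between 1731 and 5833 and to between 443.5 and 511.9, and the 2 tested, Acta1 and Des, both fell. Most of this sum was Acta1, with between 1592 and 4449 in Rnf40+/+ and between 409 and 453 in Rnf40-/- libraries. Actc1 had 937 normalized counts in Rnf40+/+ replicate 1 and at most 10.2 in any other library. The defining regulator Myod1 was at 0 in all 6 libraries. The 8 endothelial markers summed to between 158 and 289 normalized counts in Rnf40+/+ and to between 247 and 359 in Rnf40-/- libraries. Of 6 tested 3 rose (Pecam1, Cdh5 and Kdr) and 1 fell (Emcn), where Pecam1 and Cdh5 had at most 5.1 in Rnf40+/+ libraries. The 9 epithelial markers, 8 of them with a mean under 15, summed to between 42.8 and 113.5 and to between 61.4 and 87.7. Of 4 tested 1 rose (Cldn4, from a mean of 6.1 to 19.7). The 10 chondrocyte and osteoblast markers summed to between 2300 and 2886 and to between 1514 and 1698, with 4 falling of 5 tested. The part of these differences in the results below was not tested, and in bulk samples fewer cells of a type and less RNA per cell cannot be told apart.

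In Rnf40-/- MEFs 6 of the 10 genes fell, 1 rose and 3 did not pass the test. The genes that fell were Serpinh1, Pcolce, Plod3, P4ha2, P4ha3 and Plod1, the gene that rose was Plod2, and P4ha1, Crtap and Bmp1 were not called. A gene was called when its limma p value, computed on log2(normalized count + 1) and adjusted by Benjamini-Hochberg over 16378 genes, was under 0.05. Changes were widespread in these cells, as 47.4% of all genes tested were called, 24.1% in the lower and 23.3% in the higher direction. The Rnf40-/- libraries lay wholly below the Rnf40+/+ libraries for 6 of the 10 genes and wholly above them for 2 (Plod2 and Crtap), as was the case for 28.7% and 27.8% of all genes tested. Over the 10 genes the log2 fold change had a median of -0.26, beside -0.0035 over all genes tested. With the exception of Serpinh1 the changes were small. The criteria of the study were applied here to the p value and log2 fold change of limma, so its own calls may differ. Only Serpinh1 met those for a downregulated gene (mean above 15, p under 0.05 and log2 fold change below -1), which 5.7% of all genes tested met. None of the 10 met those for an upregulated gene, which 4.25% met.

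**Figure D1:**
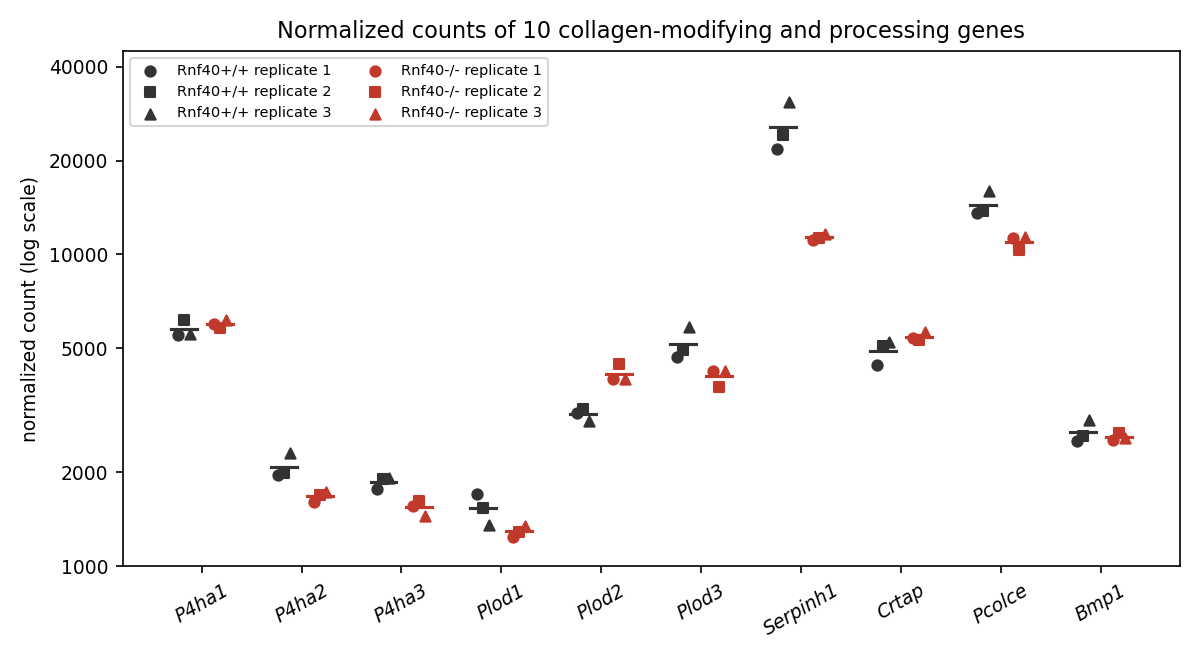
Normalized counts of the 10 genes in every library, on a log scale, with Rnf40+/+ in black and Rnf40-/- in red; the marker shape gives the replicate and the horizontal bar the mean of 3 libraries. The 3 Rnf40-/- libraries lie far below the Rnf40+/+ libraries for Serpinh1 (at most 11648 against at least 21839), while the groups overlap for P4ha1 and Bmp1. Heights are not corrected for transcript length and do not rank the genes.

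Serpinh1, the collagen chaperone HSP47, showed the largest change of the 10 genes. The gene (ENSMUSG00000070436) spans 106493885 to 106501740 of chromosome 7 in mm9, minus strand. It had 21839, 24100.0 and 30747 normalized counts in Rnf40+/+ replicates 1, 2 and 3, against 11166, 11273 and 11648 in Rnf40-/- replicates 1, 2 and 3, the order used for every gene here. The groups did not overlap, and the spread was wide in Rnf40+/+ MEFs, where replicate 3 stood above the other 2 libraries, and narrow in Rnf40-/- MEFs (coefficients of variation 18.1% and 2.23%). The means were 25562 ± 4631 and 11363 ± 253 (SD, n = 3 each), the latter being 44.5% of the former. Limma gave a log2 fold change of -1.15 ± 0.11 (SE), with an adjusted p = 3.93e-06, and 4.55% of all genes tested had a lower one. Fits that each omitted a different library put the change of Serpinh1 between -1.26 and -1.01, the smallest fall being that without Rnf40+/+ replicate 3.

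Crtap, the cartilage-associated protein that forms a complex with prolyl 3-hydroxylase 1 and cyclophilin B, showed no such fall. Crtap (ENSMUSG00000032431, chromosome 9 of mm9, 114284252 to 114299793, minus strand) had 4423, 5079 and 5256 normalized counts in Rnf40+/+ libraries and 5412, 5331 and 5626 in Rnf40-/- libraries. The Rnf40-/- libraries were all above the Rnf40+/+ libraries, but the gap was narrow compared with the spread of the latter. The log2 fold change was 0.15 (95% interval -0.0065 to 0.31, adjusted p = 0.106 from limma), which leaves room for a rise of up to that upper bound. Without Rnf40+/+ replicate 3 it was 0.20 and passed the threshold (adjusted p = 0.0304 from limma).

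Of the 3 prolyl 4-hydroxylase alpha subunits, the catalytic partners of the beta subunit P4hb, the less abundant P4ha2 and P4ha3 fell while P4ha1 was not called. P4ha1 (ENSMUSG00000019916, chromosome 10 of mm9, 58786044 to 58836052, plus strand) had 5502, 6169 and 5572 normalized counts in Rnf40+/+ libraries and 5976, 5826 and 6143 in Rnf40-/- libraries. These ranges overlapped, and the log2 fold change of 0.06 had a 95% interval from -0.084 to 0.20 (adjusted p = 0.486 from limma). P4ha2 (ENSMUSG00000018906, chromosome 11, 53913597 to 53945167, plus strand) had 1962, 1990 and 2313 normalized counts against 1612, 1696 and 1737. All Rnf40-/- values of P4ha2 were below all Rnf40+/+ values, and the mean fell from 2088 ± 195 to 1682 ± 63.8 (SD, n = 3 each), for which limma gave a log2 fold change of -0.31 ± 0.08 (SE) and an adjusted p = 0.00558. P4ha3 (ENSMUSG00000051048, chromosome 7, 107434030 to 107468209, plus strand) had 1773, 1913 and 1922 normalized counts against 1562, 1624 and 1455.0. It fell by nearly as much as P4ha2, with a limma log2 fold change of -0.27 ± 0.07 (SE) and an adjusted p = 0.00653 and no overlap between the genotypes.

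The promoters of Serpinh1, which fell most, and of the pair P4ha1 and P4ha2, which differed in their calls, are shown from 250 bases before to 50 bases after the start of the transcript, as RefSeq gives them for GRCm38.p6. Prolyl and lysyl hydroxylase genes are known to be induced by hypoxia. The capitals mark the letters ACGTG, a form of the core of the hypoxia response element, or their reverse complement CACGT. Other forms of this core, such as GCGTG, were not marked or counted, and a promoter without capitals may hold them. The letters GCGTG occur in P4ha1 and P4ha2 below, and in Plod1 and Crtap, whose promoters lack ACGTG and are not shown. Serpinh1 lies at chr7:99353190-99353489 on the minus strand, P4ha1 at chr10:59323046-59323345 and P4ha2 at chr11:54100674-54100973, both on the plus strand.
Serpinh1: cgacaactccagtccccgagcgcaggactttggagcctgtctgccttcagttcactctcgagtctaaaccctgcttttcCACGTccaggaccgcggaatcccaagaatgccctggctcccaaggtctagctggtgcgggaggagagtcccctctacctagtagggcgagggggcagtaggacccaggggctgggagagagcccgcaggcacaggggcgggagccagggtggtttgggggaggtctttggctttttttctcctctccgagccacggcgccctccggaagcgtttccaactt
P4ha1: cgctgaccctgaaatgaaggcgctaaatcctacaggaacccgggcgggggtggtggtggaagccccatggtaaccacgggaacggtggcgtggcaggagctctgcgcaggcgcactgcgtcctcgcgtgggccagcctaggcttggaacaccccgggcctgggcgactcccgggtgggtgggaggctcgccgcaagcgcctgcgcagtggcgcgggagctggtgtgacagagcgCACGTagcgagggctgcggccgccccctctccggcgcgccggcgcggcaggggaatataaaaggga
P4ha2: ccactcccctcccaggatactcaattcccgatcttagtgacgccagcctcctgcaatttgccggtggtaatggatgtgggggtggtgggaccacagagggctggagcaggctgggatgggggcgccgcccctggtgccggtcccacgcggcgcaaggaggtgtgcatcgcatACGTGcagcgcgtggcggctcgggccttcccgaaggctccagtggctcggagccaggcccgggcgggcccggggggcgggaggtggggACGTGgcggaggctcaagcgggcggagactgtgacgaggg
The letters were found once in Serpinh1, 171 bases before the start, once in P4ha1, 16 bases before it, and at 2 places in P4ha2. Promoters were matched for 8 of the 10 genes, and 4 of these 8, with Plod3 as the other gene, held the letters on either strand, beside 19.6% of all 32851 promoters of the same length. The member promoters were also richer in G and C (from 53.3% to 70.3%) than the median promoter (52.7%). Such a match is a description of these letters and not a site of binding. P4ha1 and P4ha2 both held the letters, and P4ha2 fell while P4ha1 was not called. Whether the letters bear on these calls was not tested.

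The 3 lysyl hydroxylases were all called, but not in the same direction. Plod2 encodes the enzyme that hydroxylates the telopeptides of collagen, the ends at which the more stable cross-links form, and it was the gene of the 10 that rose. Plod2 (ENSMUSG00000032374, chromosome 9 of mm9, 92437061 to 92503266, plus strand) had 3095, 3201 and 2930 normalized counts in Rnf40+/+ libraries and 3983, 4444 and 3982 in Rnf40-/- libraries. The lowest Rnf40-/- value was well above the highest Rnf40+/+ value, and the mean rose 1.34-fold from 3075 ± 137 to 4136 ± 267 (SD, n = 3 each). Limma gave a log2 fold change of 0.43 ± 0.07 (SE), with an adjusted p = 0.000301, and 18.8% of all genes tested had a higher one.

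Plod3, which also carries the glycosyltransferase activity that adds sugars to hydroxylysine, fell in Rnf40-/- MEFs. Plod3 (ENSMUSG00000004846, chromosome 5, 137462889 to 137472518, plus strand) had 4678, 4947 and 5834 normalized counts in Rnf40+/+ libraries against 4230, 3756 and 4236. The groups did not overlap, although Rnf40+/+ replicate 3 again held the highest value, and limma gave a log2 fold change of -0.33 ± 0.09 (SE), with an adjusted p = 0.00691. Exons of Plod3 overlap those of Znhit1 on the opposite strand in the mm9 annotation, and the sources used here do not state whether reads were counted by strand. The level of Znhit1 was 469 ± 113 normalized counts in Rnf40+/+ and 422 ± 83.2 in Rnf40-/- MEFs (SD, n = 3 each), well under that of Plod3.

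Plod1, the enzyme for lysines within the triple helix, showed the smallest fall that passed the test. Plod1 (ENSMUSG00000019055, chromosome 4, 147283862 to 147310876, minus strand) had 1703, 1540 and 1359 normalized counts in Rnf40+/+ libraries and 1246, 1291 and 1346 in Rnf40-/- libraries. The lowest Rnf40+/+ and the highest Rnf40-/- value lay close together, and limma gave a log2 fold change of -0.24 ± 0.08 (SE), with an adjusted p = 0.0351. Leaving out any single library other than Rnf40+/+ replicate 3 took the adjusted p of Plod1 above the threshold, the weakest result being that without Rnf40+/+ replicate 1 (log2 fold change -0.16, adjusted p = 0.135 from limma).

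**Figure D2:**
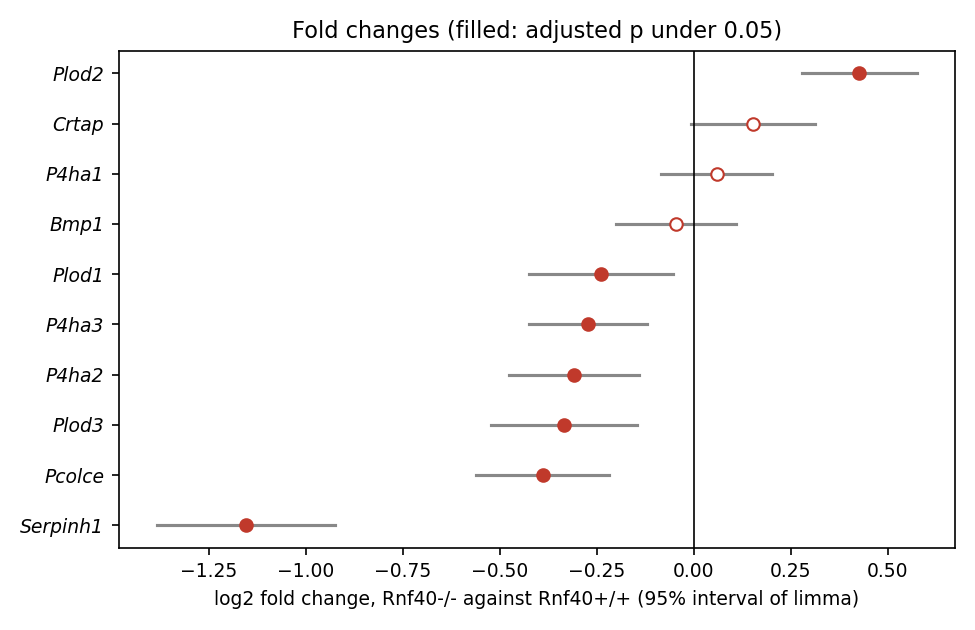
Log2 fold change of each of the 10 genes in Rnf40-/- against Rnf40+/+ MEFs with its 95% interval from limma, ordered by size; filled points have an adjusted p under 0.05. Serpinh1 at -1.15 stands apart from the other 5 genes that fell, which lie between -0.39 and -0.24, and Plod2 at 0.43 is the filled point to the right of 0.

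The factors that act on procollagen after secretion also differed in their calls, although the test of their ratio, given below, did not pass the threshold. Pcolce, a secreted glycoprotein that enhances removal of the C-propeptide, fell, whereas Bmp1, the protease that cleaves it, did not pass the test. Pcolce (ENSMUSG00000029718, chromosome 5 of mm9, 138046331 to 138055012, minus strand) had 13533, 13804 and 15946 normalized counts in Rnf40+/+ libraries and 11281, 10300 and 11396 in Rnf40-/- libraries. The groups were well separated, and the mean fell from 14428 ± 1322 to 10992 ± 602 (SD, n = 3 each), for which limma gave a log2 fold change of -0.39 ± 0.08 (SE) and an adjusted p = 0.00151. Exons of Pcolce overlap those of Fbxo24 on the same strand, but no library had more than 23.0 normalized counts of Fbxo24. Bmp1 (ENSMUSG00000022098, chromosome 14, 70874364 to 70920067, minus strand) had 2521, 2627 and 2944 normalized counts against 2551, 2682 and 2588. The Rnf40-/- values of Bmp1 lay within the Rnf40+/+ range, and the 95% interval of its log2 fold change of -0.05 ran from -0.20 to 0.11 (adjusted p = 0.62 from limma).

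Levels of different genes were compared per kilobase of the longest coding transcript of the mm9 annotation. In Rnf40+/+ MEFs Serpinh1 had the highest level, 10691 ± 1937 normalized counts per kilobase (SD, n = 3), followed by Pcolce with 8873 ± 813. The ranges of these 2 genes overlapped across libraries. Crtap came next with 2939 ± 262, then Plod3 with 1571 ± 185 and P4ha1 with 1422 ± 90.6, which also overlapped. P4ha2, Plod2, P4ha3 and Bmp1 had means between 923 and 718 in this order, each overlapping the next, and Plod1 was lowest with 473 ± 53.0. The level per kilobase of Serpinh1 exceeded that of 99.1% of the 13572 tested genes with an annotated length, and that of Plod1 exceeded 77.2%. In Rnf40-/- MEFs the order was Pcolce, Serpinh1, Crtap, P4ha1, Plod3, Plod2, P4ha2, Bmp1, P4ha3 and Plod1, and Pcolce (6760 ± 370) was above Serpinh1 (4752 ± 106) on the same scale. These orders depended on the length used. Per kilobase of all annotated exons together Pcolce had 3774 in Rnf40+/+ and 2875 in Rnf40-/- MEFs, below Serpinh1 in both (10498 and 4666) and below Crtap in the latter (3079). On this scale P4ha2 had 335 in Rnf40+/+ MEFs and was second lowest of the 10 genes, below Plod2 (736), Bmp1 (649) and P4ha3 (614), and P4ha1 (1397) was above Plod3 (1140).

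Within the prolyl 4-hydroxylase family, P4ha1 supplied between 42.9% and 47.5% of the summed level per kilobase in Rnf40+/+ libraries and between 50.1% and 52.3% in Rnf40-/- libraries. The sum of the 3 alpha subunits was 3136 ± 136 and 2878 ± 25.6 normalized counts per kilobase (SD, n = 3 each), without overlap between genotypes. Within the lysyl hydroxylases the share of Plod2 went from between 26.7% and 30.6% to between 38.9% and 44.0%, and that of Plod3 from between 51.0% and 59.3% to between 41.5% and 46.7%. The summed levels of the 3 lysyl hydroxylases, 2884 ± 103 and 2770 ± 20.2 per kilobase, differed by about the SD of the Rnf40+/+ libraries. By a narrow gap these sums did not overlap, with at least 2796 in Rnf40+/+ and at most 2794 in Rnf40-/- libraries. No test was made of shares or sums. With the length of all annotated exons, an alternative chosen after seeing the data, the share of P4ha1 was between 57.5% and 61.3% in Rnf40+/+ and between 63.7% and 66.4% in Rnf40-/- libraries, and that of Plod2 was between 32.0% and 36.7% and between 45.6% and 51.0%. The level of a share thus depended on the length, while the genotypes were without overlap for P4ha1 and Plod2 with both.

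**Figure D3:**
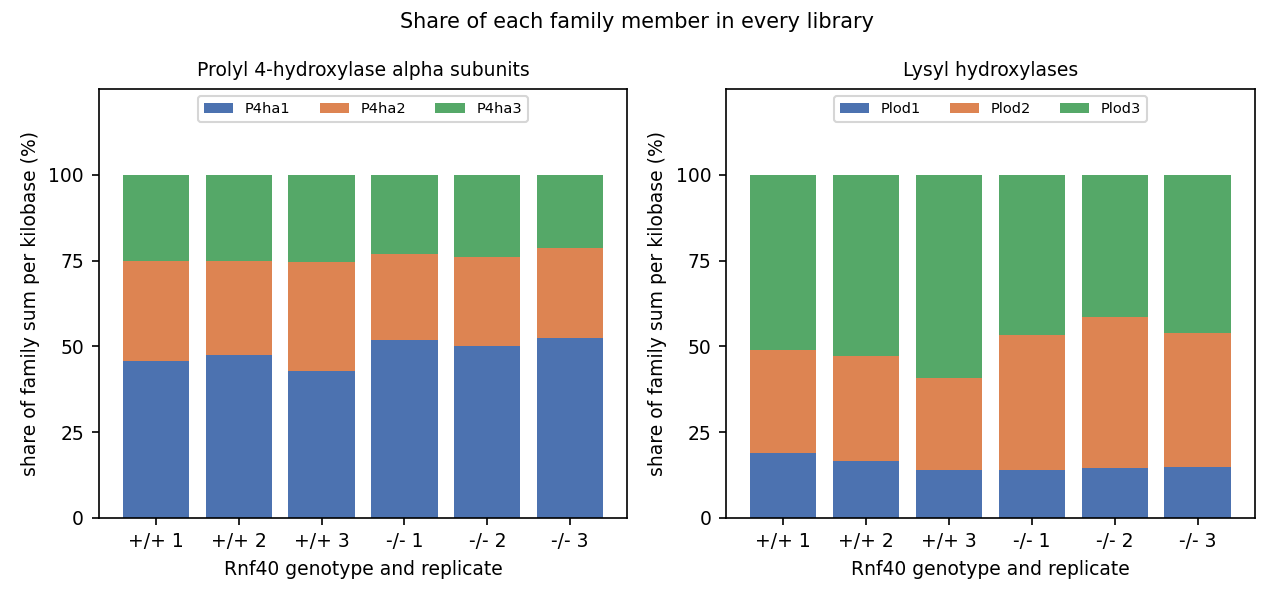
Share of each gene in the summed level per kilobase of its family, in percent, for every library (+/+ and -/- are the Rnf40 genotypes), with prolyl 4-hydroxylase alpha subunits on the left and lysyl hydroxylases on the right. The Plod2 segment is at most 30.6% in Rnf40+/+ libraries and at least 38.9% in Rnf40-/- libraries.

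Whether members of a family differed in their response was tested on the log2 ratio of 2 genes within a library, in which size factors cancel. Gene lengths cancel only in the change of a ratio between genotypes, so the ratios themselves are not corrected for length. An exact two-sided permutation test was used for 8 pairs, and 3 libraries against 3 cannot give a p below 0.1. The largest shift was that of Plod2 against Plod3, whose log2 ratio was -0.60, -0.63 and -0.99 in Rnf40+/+ and -0.087, 0.24 and -0.089 in Rnf40-/- libraries. The genotypes did not overlap, and the mean log2 ratio was 0.76 higher in Rnf40-/- MEFs (exact permutation p = 0.1, 0.133 after Benjamini-Hochberg adjustment over the 8 pairs). The mean log2 ratio differed by -0.67 for Plod1 to Plod2, by 0.37 for P4ha1 to P4ha2, by 0.33 for P4ha1 to P4ha3, by 0.34 for Bmp1 to Pcolce and by 0.37 for Crtap to Lepre1. Each of these pairs was without overlap between genotypes and had the same exact permutation p = 0.1 (adjusted 0.133), the smallest that this design allows and above the threshold. The ratios of P4ha2 to P4ha3 (change -0.04, exact permutation p = 0.6) and of Plod1 to Plod3 (change 0.10, exact permutation p = 0.8) overlapped.

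The other genes of the pathway were examined in a list of 23 partners of collagen folding, export and processing, of which 21 were tested. Of these, 12 fell in Rnf40-/- MEFs (57.1%, beside 24.1% of all genes tested) and 4 rose (19.05%, beside 23.3%). The 21 tested partners had a median log2 fold change of -0.31, beside -0.0035 over all genes tested. P4hb, the beta subunit that holds the alpha subunits of prolyl 4-hydroxylase in solution and in the ER, rose. It had 22969, 25779 and 25046 normalized counts in Rnf40+/+ against 33617, 33812 and 36703 in Rnf40-/- libraries, for which limma gave a log2 fold change of 0.50 ± 0.08 (SE) and an adjusted p = 0.00023. The genotypes were well separated for P4hb. Of the partners of Crtap, Lepre1 (prolyl 3-hydroxylase 1) fell from 2889 ± 100.3 to 2482 ± 10.8 normalized counts (log2 fold change -0.22, adjusted p = 0.0102 from limma) and Ppib (cyclophilin B) had 5213 ± 202 and 5296 ± 241 (log2 fold change 0.02, adjusted p = 0.796 from limma).

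The partners that fell most were Creb3l1, an ER-bound transcription factor that activates collagen genes (log2 fold change -1.05, standard error 0.08), Tll1, a protease related to Bmp1 (-1.02, 0.07), and Sec24d, an adaptor of the vesicle coat that exports collagen from the ER (-0.83, 0.06). Their adjusted p values were 5.9e-07, 6.49e-07 and 1.07e-06 from limma. Tll1 went from 2580 ± 231 to 1267 ± 19.6 normalized counts, while Bmp1 stayed within the Rnf40+/+ range. The partners that rose most were Leprel1 (prolyl 3-hydroxylase 2), from 156 ± 11.4 to 368 ± 15.5 normalized counts (log2 fold change 1.24, adjusted p = 3.61e-06 from limma), and Pcolce2, the paralog of Pcolce, from 236 ± 49.6 to 370 ± 24.4 (0.66, adjusted p = 0.00226 from limma). Pcolce2 thus moved in the direction opposite to Pcolce, at a much lower level.

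The fibrillar procollagen chains are substrates of these enzymes. Of 11 chains tested, 8 fell (72.7%, beside 24.1% of all genes tested) and none rose (beside 23.3%). The median log2 fold change of the chains was -0.56, beside -0.0035 over all genes tested. The count of chains that fell was 7 whichever single library was omitted, as well as with no filter, with a minimum of 10 reads, with a pseudocount of 10 and with a replicate block. In limma without multiple-testing adjustment none of the 11 rose with a p under 0.05 either, and edgeR and DESeq2 also called none of them higher. Col1a1 fell from 101907 ± 22254 to 57578 ± 2729 normalized counts (log2 fold change -0.80, adjusted p = 0.000341 from limma) and Col1a2 from 116406 ± 11237 to 24166 ± 404 (-2.26, adjusted p = 7.63e-09 from limma). Col2a1, the cartilage collagen, fell from 1058 ± 160.1 to 340.4 ± 49.3 (-1.63, adjusted p = 1.23e-06 from limma).

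General ER chaperones, which serve many secreted proteins, were tested for comparison. Of the 15 genes, 6 rose (40%, beside 23.3% of all genes tested) and 3 fell (20%, beside 24.1%), with a median log2 fold change of 0.17. Fits that omitted 1 library called 4 to 6 of them higher and 2 to 3 lower. Whether this list differed from the other lists was not tested. The largest rises were those of Ero1l, the oxidase of the ER (0.73), Pdia3 (0.55) and Canx (0.46), and the largest falls those of Hsp90b1 (-0.75), Manf (-0.60) and Pdia6 (-0.23), with adjusted p values from limma between 3.1e-06 and 0.0261. In a list of 24 genes induced by hypoxia, 23 were tested, with a median log2 fold change of -0.36. Of these 23, 12 fell (52.2%, beside 24.1% of all genes tested) and 3 rose (13%, beside 23.3%). Vegfa (-2.25), Tpi1 (-1.45) and Adm (-0.75) fell most, and Ndrg1 (0.93), Egln1 (0.87) and Ero1l (0.73) rose. Ero1l is in both lists.

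**Figure D4:**
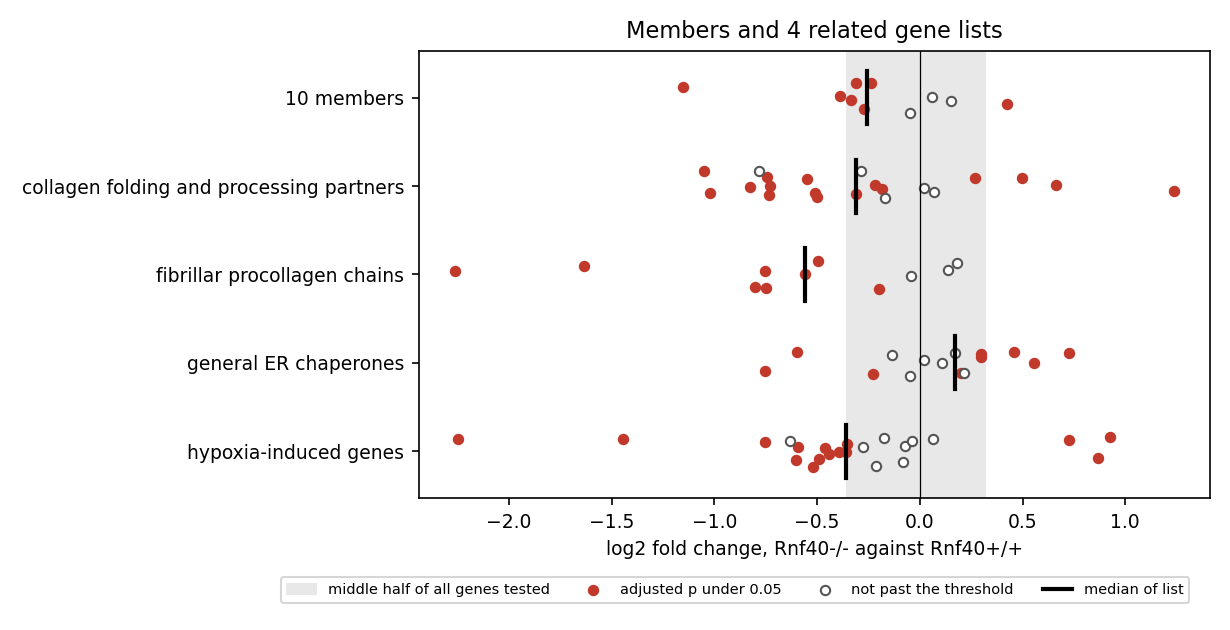
Log2 fold change of each tested gene of the 10 members and of 4 related gene lists in Rnf40-/- against Rnf40+/+ MEFs; red points have an adjusted p under 0.05, black bars are list medians and the grey band spans the quartiles of all genes tested (-0.35 to 0.32); vertical positions within a list are random. The median of the members (-0.26) lies within the band and between those of the fibrillar chains (-0.56) and the general ER chaperones (0.17).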

How the data were processed

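RNA-seq values of 3 Rnf40+/+ and 3 Rnf40-/- MEF libraries (strand-specific kit) were used. According to the methods, sequences were aligned by the authors to the mm9 mouse transcriptome and normalization was done with DESeq. The submitters' processing notes name Bowtie2 (version 2.1.0) and DESeq (version 1.14.0), and the counting tool is not given in the sources used here. The deposited signal is a read number per gene scaled by a size factor for each library. Dividing it by its smallest step returned whole reads for 100% of the positive values (tolerance 0.01 reads). Low genes were removed by edgeR's filterByExpr (version 4.0.16, grouped by genotype), and the rest tested with limma (version 3.58.1; eBayes with trend) on log2(normalized count + 1), with genotype as the only term. On the recovered reads, edgeR (quasi-likelihood, TMM) and DESeq2 (version 1.42.0, Wald) served as alternatives, as did other scalings, filters, pseudocounts, a replicate block and leaving out each library. The tests were tried on simulated data. R (version 4.3.3), Python (version 3.11.15) and scipy (version 1.17.1) were used. Positions and lengths come from the mm9 annotation (GENCODE), and promoters from RefSeq (GRCm38.p6). Protein sequences were not used here. The 10 genes and the lists, written from general knowledge, were chosen with earlier results of these data known. Named are the 10 genes, Rnf40, P4hb, Lepre1, Ppib, Col1a1, Col1a2, Znhit1 and Fbxo24 (whose exons overlap those of members), and per list the 3 largest rises and falls with an adjusted p under 0.05 and a mean above 15. Marker genes and the other prolyl 3-hydroxylases named (Leprel2, Leprel4) were chosen after their values were seen. Within a genotype, each pair of libraries differed by more than sampling noise (mean chi-square per gene from 5.33 to 28.8), so none was counted as a duplicate. The highest of these values, 25.9 and 28.8, were those of the pairs with Rnf40+/+ replicate 3.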

Additional observations from a re-analysis of the deposited data

How the results depend on the processing

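The calls of the 10 genes and their directions were the same under all 10 alternative settings that kept the 6 libraries (DESeq2 size factors, upper-quartile scaling, edgeR, DESeq2, no filter, a minimum of 10 reads per library, a minimum mean of 15, pseudocounts of 0.1 and 10, and the replicate block). No scaling moved the median of all genes by more than 0.0051 on the log2 scale. Each of these scalings sets the libraries to a common level, so a shift of all genes together could not be seen. Leaving out each library in turn gave 5 to 6 of the 10 genes lower and 1 to 2 higher; the log2 fold changes ranged from -0.32 to -0.16 for Plod1, from 0.078 to 0.20 for Crtap, from -0.093 to 0.018 for Bmp1 and from -0.013 to 0.052 for Ppib. Crtap was called higher, and Bmp1 changed sign, without Rnf40+/+ replicate 3, and Ppib changed sign without Rnf40+/+ replicate 2 and without Rnf40-/- replicate 3. The change of the log2 ratio of P4ha2 to P4ha3 ranged from -0.10 to 0.020 and that of Plod1 to Plod3 from -0.082 to 0.24. The cause was not tested. Of the other lists, these fits called 10 to 12 partners lower, 7 fibrillar chains lower, 4 to 6 general ER chaperones higher and 2 to 3 lower, and 11 to 14 hypoxia-induced genes lower and 3 to 4 higher. Of the genes outside the 10 that the rule named, the call of Pdia6 was lost without Rnf40+/+ replicate 3, Rnf40-/- replicate 1 or Rnf40-/- replicate 2, and that of Lepre1 without Rnf40-/- replicate 1. On the recovered reads edgeR called 3940 genes lower and 3857 higher. Whether the replicate numbers pair the libraries cannot be decided from these values, as weak correlations do not exclude it. Deviations from the group mean correlated with r = 0.035, 0.0026 and 0.061 for the same numbers (14912 genes). For unlike numbers r ran from -0.095 to 0.063, and not every library correlated best with its own number. With the replicate block 6 of the 10 genes were lower and 1 higher, and over all genes 4196 were lower and 4021 higher, against 3955 and 3809 without it.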

Other observations

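The values given here were chosen for display after they were seen. The log2 ratio of Serpinh1 to Col1a1 within a library was -2.04, -1.88 and -2.05 in Rnf40+/+ and -2.36, -2.28 and -2.37 in Rnf40-/- MEFs, lower in all 3 Rnf40-/- libraries. The log2 ratio of Serpinh1 to Col1a2 was -2.30, -2.23 and -2.07 in Rnf40+/+ and -1.11, -1.08 and -1.08 in Rnf40-/- MEFs, higher in all 3 Rnf40-/- libraries. The log2 ratio of P4hb to P4ha1 was 2.06, 2.06 and 2.17 in Rnf40+/+ and 2.49, 2.54 and 2.58 in Rnf40-/- MEFs. All 3 ratios were without overlap between genotypes, and each had an exact permutation p = 0.1, the smallest that 3 libraries against 3 can give.

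The prolyl 3-hydroxylase family was also split, as Leprel1 rose, Lepre1 fell, Leprel2 (prolyl 3-hydroxylase 3) fell from 3177 ± 89.1 to 1896 ± 115 normalized counts (SD, n = 3 each) and the related Leprel4 had 2653 ± 154 and 2778 ± 50.03 (adjusted p = 0.416 from limma). Among the 3 Rnf40+/+ libraries, replicate 3 held the highest value for 7 of the 10 genes (P4ha2, P4ha3, Plod3, Serpinh1, Crtap, Pcolce and Bmp1), replicate 2 for P4ha1 and Plod2 and replicate 1 for Plod1. Without replicate 3, 6 of the 10 genes were lower and 2 higher, Crtap being the added one.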
